A study of Mus musculus with 2 samples.

Results

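The Smads and the Smurf ubiquitin ligases were examined in primary osteoblasts of Slc39a13-KO and wild-type mice. The genes were Smad1, Smad2, Smad3, Smad4, Smad5, Smad6, Smad7, Smad9, Smurf1 and Smurf2, which are 10 of the 18193 genes on the array. A gene was read through its probe sets, each a group of short oligonucleotides for 1 transcript, and every probe set that the platform annotation gave to 1 of these symbols alone was taken, 23 in all. The study asked which genes are altered in bone-forming cells that lack Slc39a13, also called ZIP13, which moves zinc and belongs to the SLC39/ZIP proteins.

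The Slc39a13-KO cells came from homozygous mice in which a Neo cassette replaced the exons that hold the conserved motif of the ZIP family, a change made in the R1 line of embryonic stem cells. Since the deletion was in the germ line, every cell of these mice carried it. The wild-type cells came from mice without this allele. In both genotypes the calvaria, the bones of the skull vault, were taken from newborn mice, cells were released from them with collagenase and dispase, and later fractions of the digest were grown in culture. No BMP or TGF-β treatment of these cultures is named in the labels. The sources used here do not give how many pups went into each culture or their sex. Each genotype was read on 1 array, so no difference below has a replicate check and none was tested.

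Smads carry the signal of the TGF-β superfamily into the nucleus. Ligands bind pairs of type I and type II receptor kinases, which phosphorylate the receptor-regulated Smads. Smad1, Smad5 and Smad9 (also called Smad8) serve mainly the BMP receptors, and Smad2 and Smad3 mainly the TGF-β and activin receptors. The phosphorylated Smads join Smad4, the common partner, and bind DNA with other factors. Smad6 and Smad7 are the inhibitory Smads. Both are themselves induced by the pathway and act back on it at the receptors, Smad6 mainly in BMP signaling and Smad7 in both branches. Smurf1 and Smurf2 are HECT-type ubiquitin ligases that mark Smads, and receptors reached through Smad7, for degradation. In bone, BMP signaling through these proteins drives osteoblast differentiation, and mice that lack Smurf1 gain bone with age.

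Of the 10 genes, 7 were matched to RefSeq promoter windows of assembly GRCm38.p6, which run from 250 bases before the start site to 50 after it and gave 9 windows. They were searched on both strands for GTCTAGAC, the palindromic element that Smad3 and Smad4 bind, and for GGCGCC, a GC-rich element bound by Smad1 and Smad5. Each motif is its own reverse complement, and they do not overlap each other. GTCTAGAC was found in 1 window, that of Smad6, and in 70 of all 32851 promoter windows of this length (0.213%). GGCGCC was found in 4 windows, 1 of Smad9, 1 of Smurf2 and 2 overlapping windows of Smad5 that share the same site. It was found in 3898 of the 32851 (11.9%). The 9 windows were 63% to 80.3% GC, and the share was not compared at like GC content. A match of letters is a description of the sequence and shows no binding. Below are 3 windows on the minus strand, written 5′ to 3′, with these motifs in capitals. That of Smad6 (chr9:64022030-64022309) ends 30 bases after the start site and is shown for the Smad element, whose first base lies at -4 from it. Those of Smurf2 (chr11:106920716-106920965) and Smurf1 (chr5:144965831-144966080) end at the start site and are shown because these related ligases stood on opposite sides of 0 in the arrays, except with scaling on control RNAs (described with the results). Start sites here are those of the windows. The RefSeq genes begin further upstream, at 64022085 for Smad6, 106920747 for Smurf2 and 144965899 for Smurf1, so each stretch reaches into its gene. The Smurf2 stretch holds GGCGCC at 2 places and the Smurf1 stretch holds neither motif. The windows of Smad1, Smad3 and Smad6 also lack GGCGCC. Neither Smurf was called, the pair was picked after its values were seen, and no link of motif to signal was tested.
Smad6: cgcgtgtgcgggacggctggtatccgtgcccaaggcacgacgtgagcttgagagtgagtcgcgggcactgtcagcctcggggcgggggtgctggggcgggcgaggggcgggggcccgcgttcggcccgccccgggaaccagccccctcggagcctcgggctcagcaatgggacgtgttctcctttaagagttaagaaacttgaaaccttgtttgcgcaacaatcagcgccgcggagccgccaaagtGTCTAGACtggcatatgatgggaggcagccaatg
Smurf2: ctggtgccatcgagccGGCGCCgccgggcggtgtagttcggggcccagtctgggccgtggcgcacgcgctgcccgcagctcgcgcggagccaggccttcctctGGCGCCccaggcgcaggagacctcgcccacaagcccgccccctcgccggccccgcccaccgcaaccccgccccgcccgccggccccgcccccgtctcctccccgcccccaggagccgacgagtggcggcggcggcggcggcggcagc
Smurf1: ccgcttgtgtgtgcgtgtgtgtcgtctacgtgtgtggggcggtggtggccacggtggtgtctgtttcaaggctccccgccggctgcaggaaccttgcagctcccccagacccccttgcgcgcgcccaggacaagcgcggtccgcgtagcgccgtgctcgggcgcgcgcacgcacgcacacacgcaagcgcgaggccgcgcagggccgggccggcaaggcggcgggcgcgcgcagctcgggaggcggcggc

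Signals are given in the units of MAS5, which scales each array to a common trimmed mean. Signals under a floor of 85.1, the 50th percentile of both arrays together, were raised to it. Probe sets above the floor in 1 or both arrays counted as measured. Their log2 ratio sets Slc39a13-KO over wild-type. A gene took the mean over measured probe sets, given for the Smad and Smurf genes with the SD between them where there were several. A gene was called higher or lower where this mean reached 2-fold (the cutoff in the study's methods) and no measured probe set went the other way. Over all genes with several measured probe sets this SD was 0.34 at the median and 0.75 at the 90th percentile. It is a technical spread between probe sets on the same 2 arrays. It is not a spread between animals or an error of the difference between genotypes.

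The targeted gene went with the labels. Slc39a13 had a signal of 90.4 in the Slc39a13-KO array and 1309 in the wild-type array, 14.5-fold lower (log2 ratio -3.86), in the 1 probe set that reads it. Whether that probe set lies inside the deletion was not established. Over all genes 12269 were measured, 6569 of them by 1 probe set, and 51.8% of probe sets lay above the floor in Slc39a13-KO and 48.2% in wild-type. Over all genes the log2 ratio had a median of 0.11. The 24 poly-A control probe sets, for bacterial RNAs normally added before labelling, were all lower in Slc39a13-KO, with a median of -1.02, and scaling the arrays on them moved the median of all genes to 0.94. Median, quantile and loess scaling put it at -0.11, 0 and -0.01. Of the called genes, 57.5% were higher as scaled here, against 38.3%, 47.5% and 46.8% with median, quantile and loess scaling and 96.3% on the poly-A controls. Directions are therefore relative to the bulk of genes. The ratio of the 3′ to the 5′ probe set, a sign of RNA quality, was 0.752 in Slc39a13-KO and 0.796 in wild-type for Gapdh, and 1.26 in Slc39a13-KO and 1.30 in wild-type for β-actin.

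Of the 10 Smad and Smurf genes, 9 were measured. None was called higher, against 8.01% of all measured genes, and Smad7 alone was called lower, against 5.93%. With 9 genes, these counts are near the background. The log2 ratio lay within 1.5-fold for 5 of the 9 genes (Smad1, Smad2, Smad4, Smad5 and Smad6), against 67.7% of all genes. The ratios ran from -1.12 for Smad7 to 0.95 for Smad3, with a median of 0.17, close to the 0.11 of all genes, and 6 were above 0 and 3 below. Of the 22 measured probe sets, 3 were at least 2-fold higher (2 of Smad3 and 1 of Smurf2), against 9.79% of all measured probe sets, and 1 was at least 2-fold lower (of Smad7), against 6.54%. Of these 22, 21 were above the floor in both arrays. These are values of bulk RNA, in which fewer cells of a type and less RNA per cell cannot be told apart, and chondrocyte markers summed to 127913 in Slc39a13-KO and 3753 in wild-type.

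**Figure D1:**
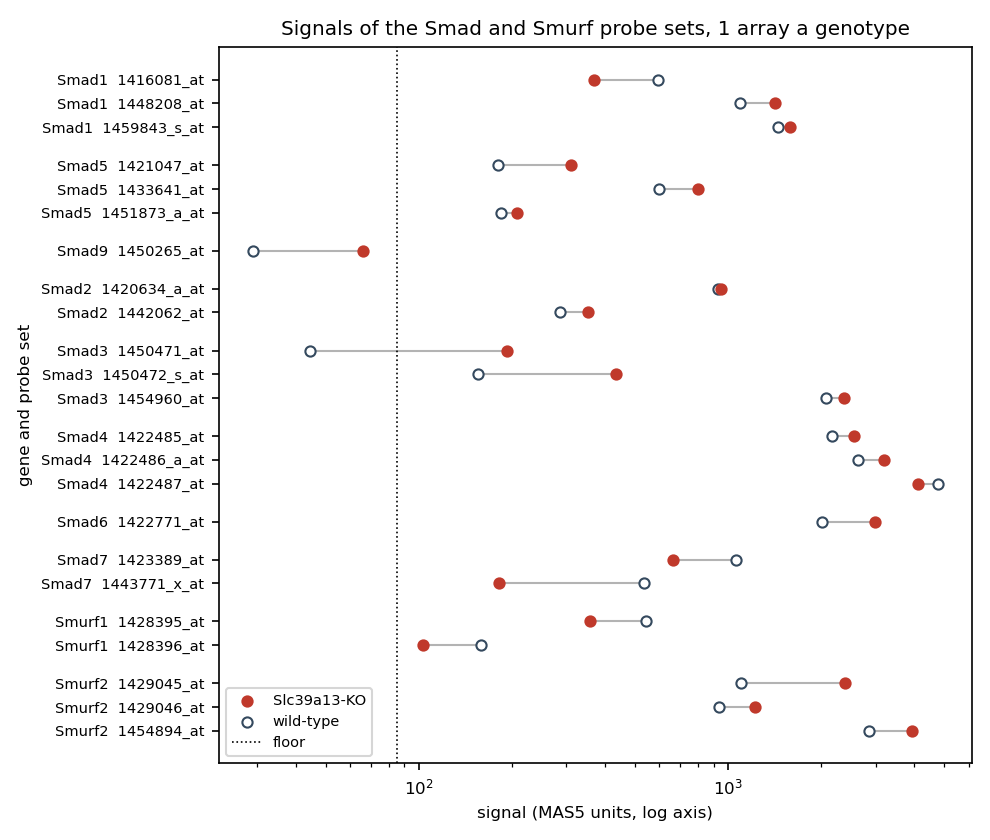
Signals of the 23 probe sets of the 10 genes, in MAS5 units on a log axis, with Slc39a13-KO as filled points and wild-type as open points, 1 array each. The dotted line is the floor of 85.1. Both signals of Smad9 and the wild-type signal of 1 Smad3 probe set lie below it, and both probe sets of Smad7 and of Smurf1 have the Slc39a13-KO point to the left.

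Among the Smads of the BMP receptors, Smad5 was a little higher in Slc39a13-KO in every probe set, Smad1 went both ways and Smad9 was not measured. The 3 probe sets of Smad1, which BMP receptors phosphorylate, had signals of 367.6, 1418 and 1591 in Slc39a13-KO, against 596.2, 1096 and 1453 in wild-type. The first of them was 1.62-fold lower and the other 2 were 1.29-fold and 1.10-fold higher. The mean log2 ratio of Smad1 was -0.06 ± 0.56 (SD between 3 probe sets), so its difference was smaller than the spread of its probe sets. The first 2 of them come from 1 source sequence and still differed in sign. Its sign also turned with the setting, and the value ran from -0.31 with median scaling to 0.96 on the poly-A controls.

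Smad5, its close relative, had signals of 311.5, 801.6 and 208.2 in Slc39a13-KO, against 180.6, 597.8 and 184.7 in wild-type. All 3 probe sets were higher in Slc39a13-KO, by 1.72-fold, 1.34-fold and 1.13-fold. The mean was 0.46 ± 0.31 (SD between 3 probe sets), a 1.38-fold difference below the threshold. Smad9 is read by 1 probe set, with signals of 66.0 in Slc39a13-KO and 29.2 in wild-type. Both lie under the floor, so no ratio is given for it. The floor is a percentile of all signals and no measure of background, so whether either culture expressed Smad9 was not established.

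Of the Smads of the TGF-β receptors, Smad3 had the highest ratio of the family and Smad2 one close to that of all genes. The probe sets of Smad2 had signals of 951.5 and 354.1 in Slc39a13-KO, against 931.1 and 286.6 in wild-type. They were 1.02-fold and 1.24-fold higher, a mean of 0.17 ± 0.19 (SD between 2 probe sets), and median scaling put it at -0.08.

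The probe sets of Smad3 shared a direction but not a size. The dimmer pair had signals of 193.5 and 433.5 in Slc39a13-KO, against 44.5 and 155.5 in wild-type. The wild-type signal of 44.5 is under the floor, so the first was at least 2.27-fold higher, and the second was 2.79-fold higher. The third probe set had 2378 in Slc39a13-KO and 2070 in wild-type, only 1.15-fold higher. All 3 were thus above 0, but they lay 1.28 apart on the log2 scale, the widest range of the 9 measured genes. The mean was 0.95 ± 0.67 (SD between 3 probe sets), at least 1.94-fold, just under the threshold for a call. Smad3 was called higher with the floor at the 30th percentile or with no floor (1.27 in both), with the median over probe sets (1.19) and on the poly-A controls (1.78). With only its brightest probe set it was 0.20. The annotation names 1 source sequence for the dimmer pair and another for the third probe set, and which part of the transcripts each reads was not established here.

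**Figure D2:**
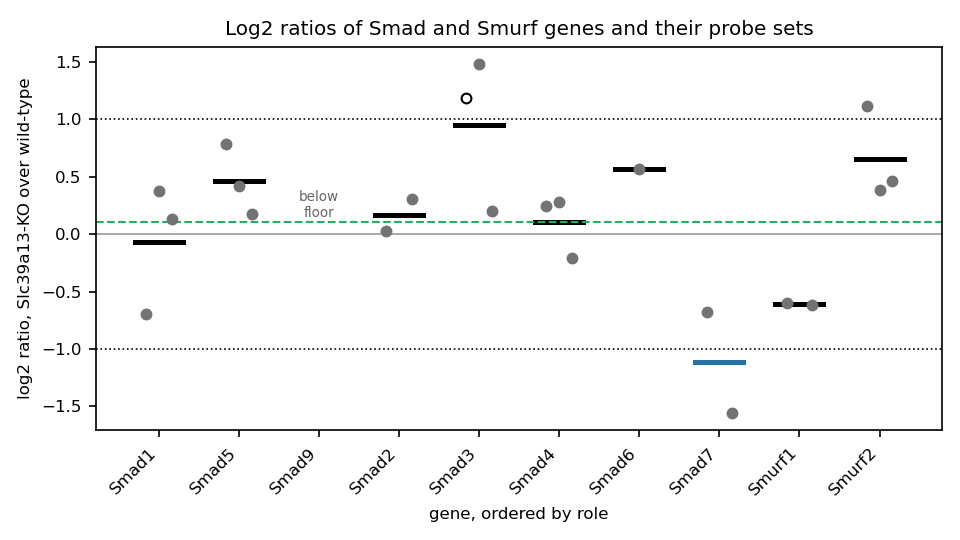
Log2 ratio of Slc39a13-KO over wild-type for the 10 genes in order of role. Points are probe sets, the open point is a bound against the floor, bars are gene means (Smad7, called lower, in blue), dotted lines mark 2-fold and the dashed line is the median of all genes, 0.11. The points of Smad3 and Smad1 are spread widely, whereas both points of Smurf1 lie within 0.02 of each other.

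Smad4, the partner shared by both branches, hardly differed. Its probe sets had signals of 2564, 3195 and 4127 in Slc39a13-KO, against 2168, 2638 and 4769 in wild-type. The first 2 were 1.18-fold and 1.21-fold higher and the third was 1.16-fold lower. The mean was 0.10 ± 0.27 (SD between 3 probe sets), a 1.07-fold difference smaller than that spread and next to the median of all genes. Median scaling put Smad4 at -0.14 and its brightest probe set alone at -0.21.

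The inhibitory Smads stood on opposite sides of 0. Smad6 had a signal of 2984 in Slc39a13-KO and 2014 in wild-type in its 1 probe set, 1.48-fold higher (log2 ratio 0.57), with no other probe set to set it against. Smad7 had signals of 664.5 and 182.4 in Slc39a13-KO, against 1063 and 536.4 in wild-type. Both probe sets were lower in Slc39a13-KO, by 1.60-fold and 2.94-fold. The mean of Smad7 was -1.12 ± 0.62 (SD between 2 probe sets), 2.17-fold lower, and it was the only one of the 10 genes to be called.

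The call of Smad7 rests on its second, dimmer probe set, whose suffix marks probes that may also match other transcripts. Without probe sets of that kind, or with the brightest probe set alone, Smad7 was 1.60-fold lower (-0.68) and was not called. It was also not called with the floor at the 70th percentile (-0.71) or on the poly-A controls (-0.09). It was called lower under the other 7 alternatives for scaling, floor and probe sets, and its log2 ratio was below 0 in all 11. The ratio of Smad6 was above 0 in all 11, between 0.32 and 1.59.

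A single scaling factor moves all genes alike, so the inhibitory Smads were also compared within the arrays. The log2 ratio of Smad6 exceeded that of Smad7 by 1.68, a 3.21-fold difference, and the Smad6 value lay above both Smad7 probe sets. Over the 11 alternatives this difference ran from 1.24 with the brightest probe set or without shared-transcript probe sets to 1.86 with loess normalization. These were 2 of the 10 genes, and the pair was taken up after its values were seen.

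The Smurf ligases also stood on opposite sides of 0, except on the poly-A controls, where both were above it. Smurf1, which was found through its binding to Smad1, had signals of 358.3 and 103.6 in Slc39a13-KO, against 541.6 and 158.7 in wild-type. Its probe sets were 1.51-fold and 1.53-fold lower, and the mean was -0.61 ± 0.013 (SD between 2 probe sets), the closest accord of any of the 10 genes with several probe sets. At 1.52-fold lower Smurf1 was below the threshold for a call, and on the poly-A controls its ratio was 0.42, the only alternative of the 11 in which it was above 0. Smurf2, which also acts on Smad2 and on TGF-β receptors through Smad7, had signals of 2391, 1221 and 3951 in Slc39a13-KO, against 1103, 937.0 and 2864 in wild-type. All 3 probe sets were higher, by 2.17-fold, 1.30-fold and 1.38-fold. The mean was 0.65 ± 0.40 (SD between 3 probe sets), 1.57-fold higher and not called.

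The log2 ratio of Smurf2 exceeded that of Smurf1 by 1.26, a 2.39-fold difference. The lowest Smurf2 probe set, at 0.38, lay above the highest Smurf1 probe set, at -0.60. Over the 11 alternatives the difference was lowest with the brightest probe set (1.06) and highest with loess normalization (1.47). This pair, too, was taken up after its values were seen. With calls at 1.5-fold in place of 2-fold, Smad3 and Smurf2 were called higher and Smad7 and Smurf1 lower, where 19.4% of all genes were higher and 12.1% lower.

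**Figure D3:**
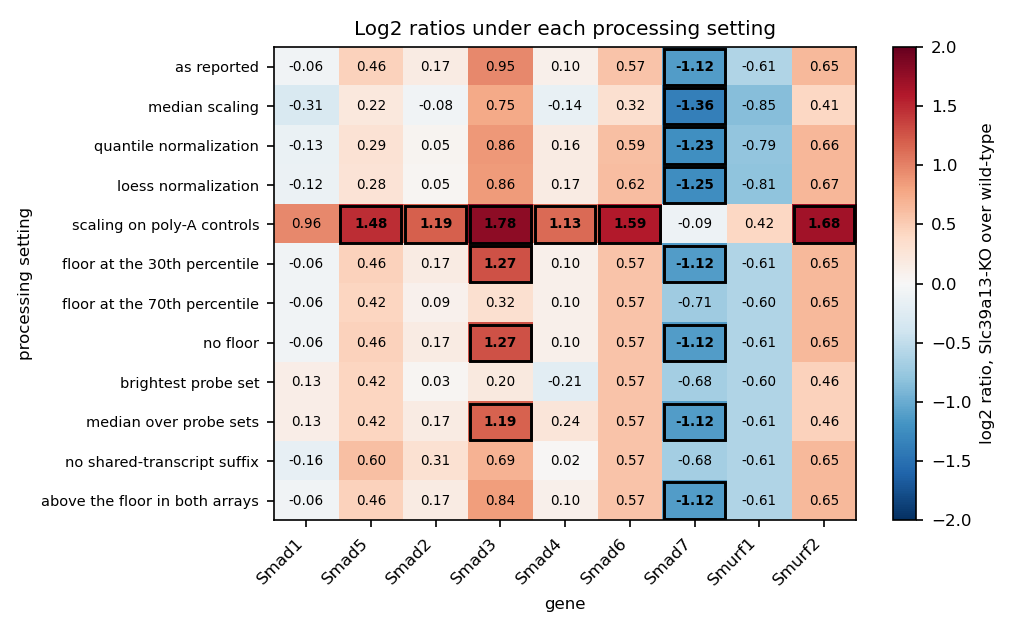
Log2 ratio of Slc39a13-KO over wild-type for the 9 measured genes (columns) under each processing setting (rows), with red above 0, blue below 0 and boxed cells called at 2-fold. Smad7 is below 0 in every row, Smad3, Smad5, Smad6 and Smurf2 are above 0 in every row, and on the poly-A controls 6 genes are called higher.

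The genes that act on the Smads or answer to them were then counted in 8 lists, 83 genes in all, of which 79 were measured. Among these 16 were called higher and 6 lower in Slc39a13-KO, beside 8.01% and 5.93% of all measured genes, with a median of 0.28. The count of each list below is to be read against the same shares, and none was tested against them. The lists were counted with the scaling used here alone. Median scaling called 5.34% of all genes higher and 8.60% lower, so the balance of higher and lower in the lists may change with scaling. Genes given with "at least" were below the floor in 1 array for some or all probe sets. These, and the genes of the lists that are named as not called, were picked after seeing their values. Upstream of the Smads, 10 of 12 type I and type II receptors were measured, with a median of 0.09. Tgfbr2, the type II receptor for TGF-β, had a signal of 3607 in Slc39a13-KO and 717.4 in wild-type, 5.03-fold higher. Its 2 probe sets had log2 ratios of 1.55 and 3.11. Acvr2a, a type II receptor for activins and BMPs, had 256.8 in Slc39a13-KO and 856.5 in wild-type, 3.34-fold lower, and Acvrl1, the endothelial type I receptor ALK1, was at least 2.85-fold lower. The other 7 receptors were not called.

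Of 8 anchors and adaptors that bring Smads or ligands to receptors, 2 were called higher and 0 lower (median 0.24). They were Dab2, an adaptor that binds receptors and Smads, at least 3.75-fold, and Tgfbr3, the co-receptor betaglycan, at least 2.93-fold. Of those not called, Eng and Strap were 1.95-fold and 1.62-fold lower, and Zfyve16 and Zfyve9 were 1.67-fold and 1.53-fold higher. All 15 of the other ubiquitin ligases and deubiquitinases of the pathway were measured, 3 of them higher and 0 lower, with a median of 0.25. Usp11, a deubiquitinase of the TGF-β type I receptor, had 1152 in Slc39a13-KO and 268.3 in wild-type, 4.29-fold higher in its 1 probe set. Nedd4, the founding member of the ligase family to which the Smurfs belong, had 17915 in Slc39a13-KO and 7658 in wild-type, 2.34-fold higher. Wwp2, another member, was at least 3.94-fold higher, with log2 ratios of its 5 probe sets from 0.52 to 2.81. Wwp1, also of that family, was 1.80-fold lower and not called.

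All 5 Smad phosphatases were measured, with a median of 0.64. Ctdsp2 and Ctdspl, small C-terminal domain phosphatases that act on the Smad linker, were 2.60-fold and 2.56-fold higher, Ctdspl in 1 probe set. Ppm1a, which removes the activating C-terminal phosphates, was 1.22-fold lower and not called. Of the 9 genes of nuclear import and export 0 were called, which is near the background of 8.01% higher and 5.93% lower for a list of this size. Their log2 ratios ran from -0.75 for Ran, the GTPase that gives transport its direction, to 0.45 for Xpo1, the exporter that carries Smad4 out, with a median of 0.16, and 8 of the 9 lay within 1.5-fold, beside 67.7% of all genes. Ipo7 and Ipo8, importins, each had 1 probe set below the floor in wild-type.

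Of 9 corepressors of the Smads, with a median of 0.35, Sin3a, a scaffold of histone deacetylase complexes, was 2.12-fold higher. Zeb2, which binds receptor-regulated Smads, was 2.20-fold lower, and its 4 probe sets ran from -2.08 to -0.35 in log2 ratio. Ski, which blocks Smad complexes, was 1.30-fold higher and its relative Skil at least 1.61-fold lower, with 1 of its 2 probe sets below the floor in Slc39a13-KO, and neither was called. Of 13 coactivators and DNA-binding partners 12 were measured, with a median of 0.20. Jun, an AP-1 subunit that meets Smads on target promoters, had 1680 in Slc39a13-KO and 722.5 in wild-type, 2.33-fold higher, and Runx3 was at least 2.06-fold higher. The acetyltransferases Ep300 and Crebbp were 1.22-fold and 1.29-fold higher, Kat2b of the same list was 1.76-fold lower, and none of these was called. Runx2 had no probe set with 1 symbol and was not analysed here.

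Of the 8 lists, the target genes had the largest share of calls, 8 of the 11 measured, with 5 higher and 3 lower and a median of 0.94, in a list chosen with earlier results of these data known. Bambi, a decoy receptor, had 1496 in Slc39a13-KO and 372.5 in wild-type, 4.02-fold higher, and Atoh8, a transcription factor, was 3.32-fold higher. The inhibitors of differentiation Id1 and Id2, which BMP induces, were 3.18-fold and 2.90-fold higher, with Id2 probe sets at log2 ratios of 1.00 and 2.08. Junb was 2.28-fold higher, and all 3 were named after their values were seen. On the other side, Pmepa1, which TGF-β induces and whose product sequesters Smad2 and Smad3, had 420.6 in Slc39a13-KO and 3239 in wild-type, 7.70-fold lower. Grem1, a secreted BMP antagonist, had 639.6 in Slc39a13-KO and 3417 in wild-type, 5.34-fold lower, and Msx2, a homeobox gene, was at least 4.39-fold lower. Msx2 is also a target of BMP signaling, so genes that BMP induces were called in both directions. Of the called target genes, only Id2 and Pmepa1 had several measured probe sets. The others rest on 1 probe set each, so the rule on direction had nothing to compare. Among the target genes not called, Id3 and Ccn2 were 1.92-fold and 1.24-fold higher and Nog was 1.20-fold lower. Smad6 and Smad7, which are targets of the pathway as well as inhibitors of it, were found on opposite sides as well, at 1.48-fold higher and 2.17-fold lower.

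**Figure D4:**
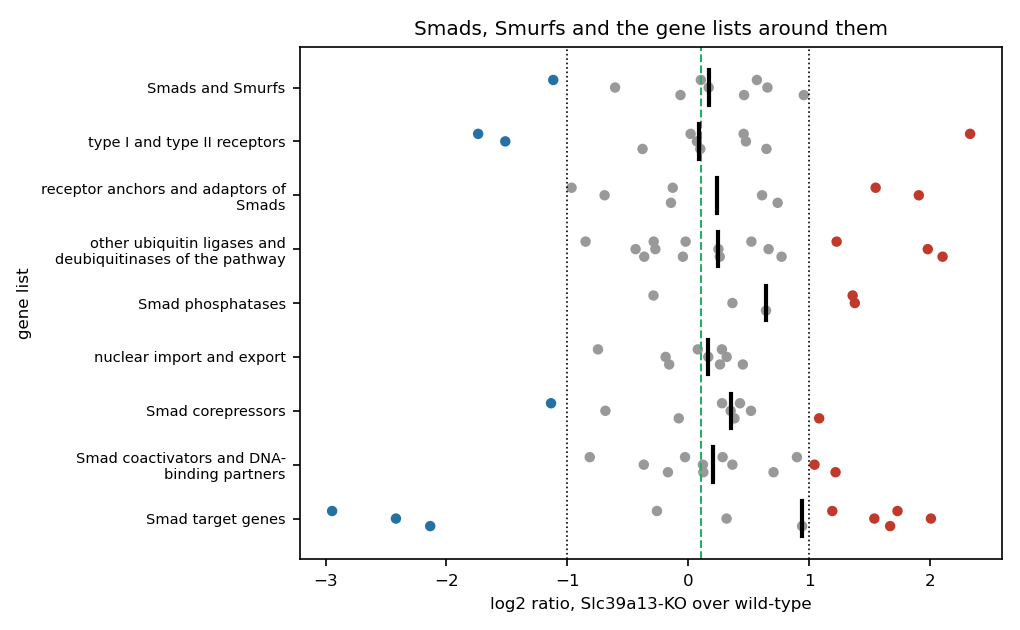
Log2 ratio of Slc39a13-KO over wild-type for the 9 measured Smad and Smurf genes (top) and for the genes of the 8 lists, 1 point a gene, with bounds plotted at their floored value. Red and blue points are called higher and lower, black bars are medians, dotted lines mark 2-fold and the dashed line is the median of all genes, 0.11. Among the target genes 5 points are red and 3 blue, beside 8.01% and 5.93% of all genes called higher and lower.

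Markers of other cells moved between the same 2 cultures. All 11 measured chondrocyte markers of 12 were called higher in Slc39a13-KO, with a median log2 ratio of 4.22 and the sums given above. Among them Col2a1, the collagen of cartilage, was 18.1-fold higher and Sox9, the chondrocyte regulator, 11.8-fold higher, 7 had every measured probe set below the floor in wild-type, and Snorc was below it in both. The largest parts of the Slc39a13-KO sum came from Cnmd (52990) and Col2a1 (47019). Of 7 smooth muscle markers, 5 were lower, with a summed signal of 15993 in Slc39a13-KO and 44256 in wild-type, led by Actg2 (41.7-fold) and Lmod1 (3.86-fold). Of 7 measured macrophage markers, 5 were higher and 1 lower, with sums of 3748 in Slc39a13-KO and 1325 in wild-type. Lyz2 was 8.41-fold higher, Cd53 was 3.50-fold lower, and Ptprc, the pan-leukocyte marker, was below the floor in both. Of 4 measured adipocyte markers, 3 were higher, with sums of 2694 in Slc39a13-KO and 552 in wild-type, and Plin4 was 6.24-fold higher.

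The 7 measured osteoblast markers had summed signals of 85507 in Slc39a13-KO and 81331 in wild-type. Nearly all of either sum came from Sparc, Col1a2 and Col1a1, which other matrix-making cells express too. Sp7 (osterix), a more specific marker, had 153.5 in Slc39a13-KO and 94.8 in wild-type, the second close to the floor of 85.1. Their median log2 ratio was 0.70, 3 were called higher and 0 lower, and Pth1r, the parathyroid hormone receptor, was 5.20-fold higher. Ibsp and Phex, genes of maturing osteoblasts, were below the floor in both, and Alpl and Dmp1 were below it in wild-type, so most of the more specific markers were near or under the floor in wild-type. The part that the makeup of the cultures has in the values of Smad7, Smad3 and the Smurfs was not tested.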

How the data were processed

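Total RNA from 1 Slc39a13-KO and 1 wild-type culture was made into biotin-labelled cRNA and read on Affymetrix arrays of the mouse genome with 45101 probe sets, 64 of them controls. The authors deposited 1 linear signal intensity for each probe set and array, which the submitters' processing notes ascribe to MAS5. For its own analysis the study named gcRMA, but the deposited intensities have a 2% trimmed mean of 500.003 in both arrays, as MAS5 scaling gives. The sources used here give no MAS5 version. Such scaling removes any difference in total mRNA per cell.

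The annotation gave 1 symbol to 34945 probe sets, of which 34741 were matched by gene ID to RefSeq (0 symbols changed), and several to 932, which were left out. Scaling, the floor, log2 ratios and calls were computed in Python 3.11.15 with numpy 2.4.6, pandas 2.3.3 and statsmodels 0.14.6 (loess). The calls were also run on simulated signals with noise at the median SD between probe sets. That noise holds no spread between animals or arrays, so the run cannot stand in for replicates. With 1 array a genotype there was no test between groups, and the number of arrays limits the precision. The genes and gene lists were chosen with earlier results of these data known. All 10 genes were named, and from each list at most 2 called genes in each direction that were above the floor in both arrays and differed most (at most 2 in all from a marker list). Any other gene was picked after seeing its value. Alternatives were median, quantile, loess and poly-A scaling, floors at the 30th and 70th percentile or none, the brightest, median, unsuffixed or both-array probe sets, no rule on sign, and a 1.5-fold threshold. The differences Smad6 minus Smad7 and Smurf2 minus Smurf1 were added after seeing the data.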

Additional observations from a re-analysis of the deposited data

How the results depend on the processing

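Each genotype has 1 array. No paired analysis was possible because of this, no array could be left out, and no interval covers the spread between animals. The count of genes called higher, 0 as reported, became 1 with the floor at the 30th percentile (Smad3), 2 with no floor (Smad9 and Smad3), 1 with the median over probe sets (Smad3), 2 at 1.5-fold (Smad3 and Smurf2) and 6 on the poly-A controls (Smad2, Smad3, Smad4, Smad5, Smad6 and Smurf2), where 45.8% of all genes were called higher. The count called lower, 1 as reported (Smad7), became 0 on the poly-A controls, with the brightest probe set, with a 70th-percentile floor and without shared-transcript probe sets, and 2 at 1.5-fold (Smad7 and Smurf1). The median log2 ratio of the genes, 0.17 as reported, was 1.16 on the poly-A controls, beside 0.94 for all genes, and between -0.08 and 0.31 under the other 10 alternatives. Of the single genes, Smad3, Smad5, Smad6, Smad7 and Smurf2 kept their sign under all 11 alternatives for scaling, floor and probe sets, Smad2 and Smurf1 under 10, Smad4 under 9 and Smad1 under 8. The counts of the gene lists were not run under the alternatives. Low signals limit Smad9, 1 Smad3 probe set and 1 Smurf1 probe set, which lie under or near the floor of 85.1.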
